A study of Mus musculus with 56 samples.

Results

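Transcripts of 10 genes of nicotinamide adenine dinucleotide (NAD) synthesis and use were followed over the day in mouse liver under 2 opposite feeding times. The genes were taken by name from a table of 25415 genes, matched through GENCODE vM21, and all 10 were found: Kmo, Afmid, Haao, Qprt, Naprt, Nampt, Nmrk1, Nmnat1, Nnmt and Sirt1. The livers came from 56 female C57BL/6J mice, 9 weeks old, that had received food only in the day (daytime-restricted feeding, DRF) or only in the night (nighttime-restricted feeding, NRF, the reference regimen) for 7 days. All mice lived under 12 h of light and 12 h of darkness. Sampling ran in 4-h steps from zeitgeber time (ZT) 0, the hour of lights on, to ZT24, with 4 different animals per regimen and step, which gave 14 groups and 28 libraries per regimen. No genotype, drug or diet composition differed between the groups.

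NAD is the coenzyme that carries electrons in fuel oxidation, and sirtuins, PARPs and the glycohydrolase CD38 consume it as a substrate. The liver makes it de novo from tryptophan through the kynurenine pathway, from nicotinic acid through the Preiss-Handler route, and from nicotinamide or nicotinamide riboside through salvage. Nicotinamide released by the NAD consumers is either returned to NAD, with Nampt as the rate-limiting enzyme, or methylated by Nnmt and lost. Nampt is a known target of the circadian clock, and Sirt1 is known for feeding NAD levels back to the clock.

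Levels are given as scaled counts: a whole count was rebuilt from each deposited value and multiplied by a factor of its library. They summed to between 889476 and 1117460 per library and compare libraries, not genes, unless divided by length. Within groups, libraries correlated between 0.982 and 0.995 across genes on the log2 scale. Tests were made with limma on log2(scaled count + 1) across all genes, and adjusted p-values are Benjamini-Hochberg values over the 25415 genes with a threshold of 0.05. The spread is that between animals. Hepatocyte markers (Alb, Apoa1, Ttr, Cps1 and Cyp2e1) were high in every library, with a summed level between 97858 and 157481, and lymphocyte markers summed to at most 3.36. The adipocyte markers Adipoq and Plin1 were not found among the 25415 genes. The tendency of long genes to lie above or below their mean, a possible sign of RNA quality, differed between libraries. Its rank correlation with exon length had a median of -0.27 in the DRF ZT4 group and 0.21 in the DRF ZT24 group, and its part in the results was examined only by a length-corrected alternative.

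Per kilobase of exon, the levels spanned a wide range. Mean scaled counts per kilobase over the 56 libraries were 170.0 for Haao, 94.0 for Nnmt, 32.0 for Kmo, 15.9 for Afmid, 14.2 for Qprt, 9.59 for Nmrk1, 7.23 for Nampt, 7.16 for Naprt, 4.46 for Sirt1 and 3.42 for Nmnat1. The ranges of neighbours in this order overlapped over the libraries (Haao 108 to 217, Nnmt 28.6 to 203, Kmo 25.1 to 39.8 and Afmid 8.35 to 38.3 per kilobase). The place of Haao rested on a length of 1222 bases found from the values, against 4681 annotated bases. Its counts were rebuilt with the 1222 bases. Dividing those same counts by the 4681 bases gave 44.4 per kilobase, below Nnmt, which is not a level rebuilt with the annotated length. Nmrk1 also rested on a length found from the values, 3345 against 3689 annotated bases.

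The question asked of each gene was whether it had a daily rhythm in each regimen and whether the rhythm moved with the food. A 24-h cosine passed the test in 5 of 10 genes under DRF (Nampt, Nmrk1, Nmnat1, Kmo and Nnmt), where 34.9% of all genes passed. Under NRF 6 of 10 passed (Nampt, Nmrk1, Naprt, Kmo, Nnmt and Sirt1), against 43.6% of all genes. The rhythm differed between regimens in 6 of 10 genes (Nampt, Nmrk1, Kmo, Nnmt, Afmid and Nmnat1), against 38.8% of all genes. The members' counts therefore lay near those of the whole table, and with 10 genes each gene is 10% of the list. What set the genes apart from each other was the size and the direction of the change, which is described route by route.

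**Figure D1:**
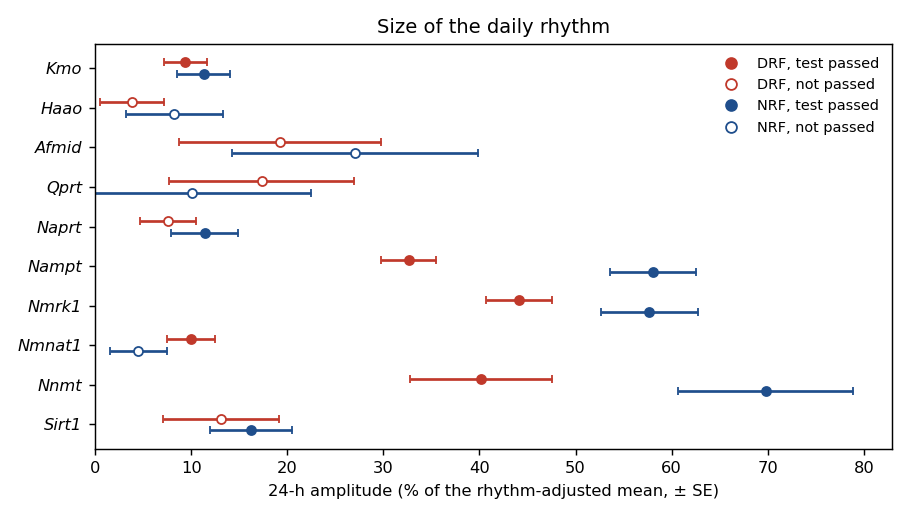
Amplitude of the fitted 24-h cosine on the scaled count scale, as a percentage of the rhythm-adjusted mean, for each gene and regimen (28 libraries each; bars are SE by the delta method). Filled points passed the limma rhythm test and open points did not; Nampt, Nmrk1 and Nnmt lie between 32.6% and 69.8%, and the other genes at most at 27.1%.

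Nampt, which turns nicotinamide into nicotinamide mononucleotide, had its high values from the start of the fed phase on in each regimen. Its highest NRF mean lay at that start (59.4 ± 5.68, SD, n = 4, at ZT12). Under DRF its highest values were in the light phase and its lowest in the dark phase, and under NRF the order was the opposite. At ZT4 the 4 DRF livers read 47.5, 52.4, 47.8 and 49.5 scaled counts, and the 4 NRF livers read 18.6, 21.7, 14.6 and 15.9. At ZT16 the DRF livers read 31.1, 26.8, 22.7 and 24.8, and the NRF livers read 57.8, 58.7, 53.6 and 54.1. Every DRF liver was above every NRF liver at ZT4 and below every NRF liver at ZT16. Nampt (ENSMUSG00000020572, chr12:32819545-32853349, plus strand, protein-coding, GRCm38) differed between regimens by 1.44 ± 0.10 (log2, SE) at ZT4, where DRF was 2.78-fold higher in the ratio of means (adjusted p = 3.42e-14). At ZT16 the difference was -1.07 ± 0.10 (adjusted p = 4.19e-10).

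Nampt differed between the regimens at all 7 times, with no overlap between the 4 and 4 livers at any of them. The share of all genes called was between 13% at ZT8 and 20.4% at ZT4. The log2 differences (each SE 0.10) were 0.91 for ZT0, 1.004 for ZT8, -0.83 for ZT12, -0.52 for ZT20 and 0.52 for ZT24. Its sign changed between ZT8 and ZT12 and again between ZT20 and ZT24. The largest adjusted p among these was 2.73e-04, at ZT24.

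The fitted peak of Nampt lay at ZT4.65 ± 0.30 h under DRF and at ZT15.3 ± 0.29 h under NRF (SE, n = 28), 10.7 ± 0.42 h apart. Its amplitude was 12.2 ± 1.06 scaled counts under DRF and 21.6 ± 1.65 under NRF. The group means spanned 1.87-fold under DRF, from 26.3 ± 3.58 (SD, n = 4) at ZT16 to 49.3 ± 2.23 at ZT4. Under NRF they spanned 3.35-fold, from 17.7 ± 3.14 at ZT4 to 59.4 ± 5.68 at ZT12. The rhythm-adjusted mean did not pass the test of a difference between regimens (0.11 ± 0.05 on the log2 scale, adjusted p = 0.211). The group means differed in when they were high and in how far they spanned.

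Nmrk1, the kinase that phosphorylates nicotinamide riboside, had its high and low phases in the same parts of the day as Nampt. At ZT0 the DRF livers read 41.2, 39.8, 41.9 and 44.3 scaled counts and the NRF livers 20.01, 17.7, 19.96 and 15.4. At ZT12 the DRF livers read 23.4, 24.6, 16.4 and 21.1 and the NRF livers 47.7, 48.1, 67.5 and 53.6. The groups did not overlap at either time, and their order was reversed. Nmrk1 (ENSMUSG00000037847, chr19:18631950-18652428, plus strand, protein-coding) differed by 1.16 ± 0.14 (log2, SE) at ZT0 and by -1.31 ± 0.14 at ZT12 (adjusted p = 2.53e-08 and 1.44e-09).

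It differed at 5 of 7 times (ZT0, ZT4, ZT12, ZT16 and ZT24). At ZT8 and ZT20, the last times before the sign changed, the groups overlapped and the differences of 0.39 and -0.39 did not pass (adjusted p = 0.0559 and 0.0594). Each of these 2 differences passed in 3 alternatives. The fitted peaks were ZT2.71 ± 0.30 h under DRF and ZT14.6 ± 0.34 h under NRF, 11.9 ± 0.46 h apart (SE). Amplitudes were 13.8 ± 1.07 and 19.4 ± 1.69 scaled counts. Over the 14 group means, Nampt and Nmrk1 had a Pearson correlation of 0.92, a description over groups that share the libraries of both genes.

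**Figure D2:**
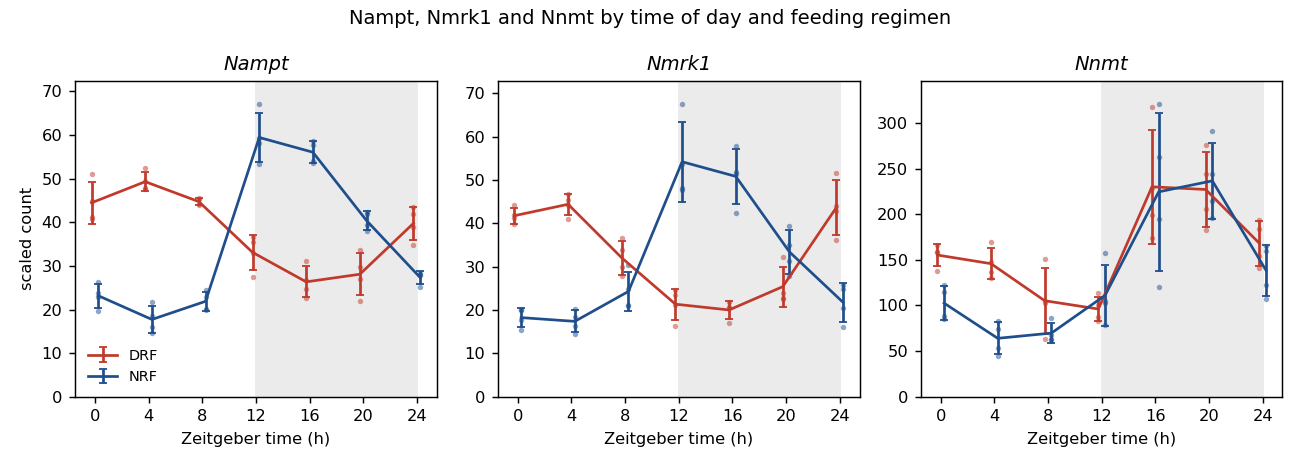
Scaled counts of Nampt, Nmrk1 and Nnmt against zeitgeber time (h), 4 livers per group as points, with lines through the group means and bars of SD; red is DRF, blue is NRF and grey is the dark phase. Nampt and Nmrk1 exchange their high and low phases between regimens, while Nnmt is highest at ZT16 and ZT20 in both, with means between 224 and 237.

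The tests of the rhythm difference gave adjusted p = 1.06e-19 for Nampt and 4.39e-21 for Nmrk1, the smallest of the 10 genes. Whether the inversion was exact was asked by testing each rhythm against the same rhythm displaced by 12 h, with equal amplitude. A departure can therefore come from the peak time, the amplitude or both, which this test does not tell apart. The departure from an exact inversion passed in 4 of 10 genes (Nampt, Naprt, Kmo and Nnmt), against 34.2% of all genes. Nampt departed from it (adjusted p = 3.53e-05), and Nmrk1 did not pass (adjusted p = 0.0746), though it passed in 4 of 13 alternatives, among them another scaling (median of ratios).

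The hours of food access are not given in the sources used here, so DRF was aligned at ZT0 and NRF at ZT12, the starts of the phases in which they were fed. On this axis 5 of 10 genes differed at some time (Nampt, Nmnat1, Naprt, Kmo and Nnmt), against 40.7% of all genes. At single aligned times the called genes were 1 of 10 at 0 h (5.54% of all genes), 2 at 4 h (14.7%), 1 at 8 h (11.6%), 1 at 12 h (4.68%), 4 at 16 h (17.3%) and 3 at 20 h (16.3%). Nmrk1 did not pass at any of the 6 aligned times (smallest adjusted p = 0.109), though the test over all of them passed on the values as deposited (adjusted p = 5.42e-03). For example, 4 h after the start of the fed phase it read 44.4 ± 2.45 scaled counts under DRF and 50.8 ± 6.41 under NRF (SD, n = 4). Nampt differed at 4 of them. It was lower under DRF at the start (42.1 ± 4.72, n = 8, against 59.4 ± 5.68, n = 4; log2 difference -0.49 ± 0.09, adjusted p = 3.24e-04). It was higher 16 h later (26.3 ± 3.58 against 17.7 ± 3.14; log2 difference 0.55 ± 0.10, adjusted p = 1.75e-04). At 4 h, where the DRF mean was highest, the difference did not pass (49.3 ± 2.23 against 56.1 ± 2.56; log2 difference -0.18 ± 0.10, adjusted p = 0.249). So the lowest group mean of Nampt was less extreme under DRF. The contrast at the start of the fed phase does not tell peak height from peak time.

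**Figure D3:**
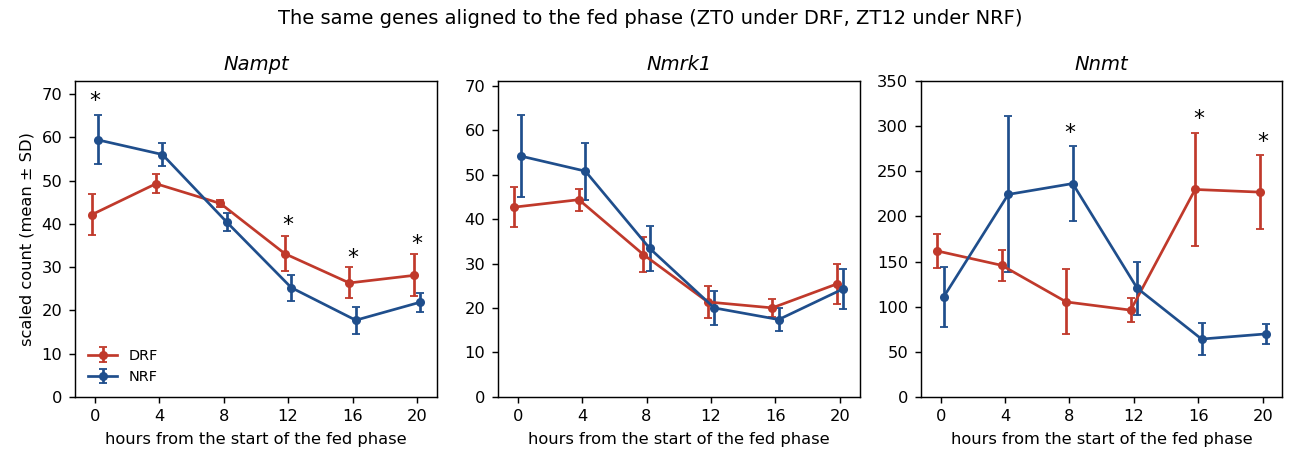
Scaled counts of Nampt, Nmrk1 and Nnmt (mean ± SD) against hours from the start of the fed phase, which is ZT0 under DRF and ZT12 under NRF; n is 4 livers per point, and 8 where ZT0 and ZT24 are combined. Stars mark adjusted p under 0.05. The curves of Nmrk1 lie close together (44.4 and 50.8 at 4 h), those of Nampt differ at 4 of 6 times, and those of Nnmt differ at 8, 16 and 20 h.

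The sequence before a RefSeq start of transcription is shown for the 3 genes with the smallest p of the rhythm difference, with the sequence of Sirt1 beside them because it alone held a match. The sequences are from RefSeq (GRCm38.p6), 5′ to 3′ on the gene's strand, and are limited to the bases of the 250 upstream of a RefSeq start that no GENCODE exon covers. For Nampt, Kmo and Sirt1 the GENCODE span of the gene begins farther upstream, because another transcript starts there, so these stretches lie inside the span and before an internal start. Capitals mark matches on either strand to the E-box CACGTG, which CLOCK and BMAL1 bind, the D-box TTATGTAA or TTACGTAA, the RORE (searched as its 10-letter form with 1 free base), the FOXO motif GTAAACA and the CRE TGACGTCA. Nampt spans chr12:32820085-32820334 (plus), Nmrk1 chr19:18631824-18631949 (plus), Kmo chr1:175631943-175631995 (plus) and Sirt1 chr10:63339051-63339285 (minus).
Nampt: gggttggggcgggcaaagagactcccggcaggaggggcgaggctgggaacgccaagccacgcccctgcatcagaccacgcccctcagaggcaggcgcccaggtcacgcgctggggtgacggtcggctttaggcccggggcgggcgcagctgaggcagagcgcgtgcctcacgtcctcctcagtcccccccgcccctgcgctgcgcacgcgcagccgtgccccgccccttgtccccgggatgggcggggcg
Nmrk1: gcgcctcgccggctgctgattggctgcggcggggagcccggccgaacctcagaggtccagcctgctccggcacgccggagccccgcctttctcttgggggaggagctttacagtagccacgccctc
Kmo: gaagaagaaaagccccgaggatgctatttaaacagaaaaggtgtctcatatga
Sirt1: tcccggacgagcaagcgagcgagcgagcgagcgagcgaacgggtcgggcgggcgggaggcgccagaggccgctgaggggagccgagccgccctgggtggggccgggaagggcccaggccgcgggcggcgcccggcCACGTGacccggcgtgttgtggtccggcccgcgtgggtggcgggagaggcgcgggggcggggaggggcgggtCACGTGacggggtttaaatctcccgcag

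None of the motifs was found in the 250 bases of Nampt, Nmrk1 or Kmo. In Sirt1, 2 E-boxes lay at positions -115 to -110 and -43 to -38 relative to the start and did not overlap. Over 32851 promoters of the same length, 6.02% held an E-box, 0.931% a D-box, 0.177% a RORE, 3.17% the FOXO motif and 1.55% the CRE. The windows of Nampt and Sirt1 were rich in G and C (75.6% and 79.2%), and that of Kmo was not (42.8%). An absent match says only that these letters are not in this window. RefSeq windows were found for 8 of the 10 genes, and Naprt and Nnmt had none in the table used.

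Nmnat1, the nuclear enzyme that joins nicotinamide mononucleotide and ATP into NAD, varied little over the day. Its group means lay between 8.64 and 12.2 scaled counts. At ZT4 the DRF livers read 12.0, 12.1, 12.8 and 11.9 and the NRF livers 8.87, 8.19, 9.74 and 7.77. The groups did not overlap there, and the difference was 0.46 ± 0.08 (log2, SE, adjusted p = 3.99e-05). At the other 6 times the groups overlapped, with differences between -0.12 and 0.14. The rhythm under DRF passed (amplitude 1.06 ± 0.26 scaled counts, adjusted p = 6.11e-03), and that under NRF did not (0.455 ± 0.30, adjusted p = 0.373). The difference in rhythm passed (adjusted p = 0.0290) but not without replicate 3 (0.145), without replicate 4 (0.240) or on the values as deposited (0.0514). The rhythm under DRF was not called without replicate 1 (0.0644), without replicate 3 (0.124) or by the exact Kendall rank test (0.118).

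Naprt, which takes nicotinic acid into the Preiss-Handler route, had fitted peaks at similar clock times in both regimens, with small amplitudes. They were ZT4.71 ± 1.35 h under DRF and ZT5.77 ± 1.02 h under NRF. The rhythm passed under NRF (1.88 ± 0.57 scaled counts around 16.5, adjusted p = 9.28e-03) and not under DRF (1.29 ± 0.50 around 17.0, adjusted p = 0.184), and the difference in rhythm did not pass (adjusted p = 0.662). At ZT16 the DRF livers read 16.9, 17.9, 17.1 and 16.5 scaled counts and the NRF livers 12.4, 14.5, 10.5 and 16.7. All but 1 of the NRF livers were below the DRF livers, a difference of 0.33 ± 0.09 (log2, SE, adjusted p = 6.40e-03). The call at ZT16 and the rhythm under NRF were both lost without replicate 1 or replicate 3. The rhythm under NRF was also lost on the values as deposited (adjusted p = 0.446) and by the exact Kendall rank test (adjusted p = 0.0815). Of the exon bases of Naprt, 11.8% are shared on the same strand with Eef1d, so reads of the overlap are uncertain.

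In the kynurenine pathway, Kmo, the monooxygenase that commits kynurenine to NAD synthesis, was higher under DRF around the start of the light phase. At ZT0 the DRF livers read 162, 159, 154 and 171 scaled counts and the NRF livers 123, 129, 127 and 119. The groups did not overlap at ZT0, ZT4 or ZT24. The differences there were 0.37 ± 0.09, 0.31 ± 0.09 and 0.37 ± 0.09 (log2, SE; adjusted p = 2.31e-03, 0.0102 and 2.71e-03). At ZT8 and ZT12 the means were close, 137 against 136 and 156 against 160 scaled counts.

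Kmo (ENSMUSG00000039783, chr1:175620381-175662116, plus strand) had a shallow rhythm in both regimens. Its amplitude was 9.41% of the mean under DRF and 11.3% under NRF, with peaks at ZT20.4 ± 0.88 h and ZT14.7 ± 0.95 h, 5.68 ± 1.297 h apart (SE). The rhythm differed between regimens (adjusted p = 1.98e-03), a call lost without replicate 4 and on the values as deposited (adjusted p = 0.101 and 0.137). The call at ZT4 was lost with the length correction and without replicate 2 or 4, and that at ZT24 without replicate 2 and on the values as deposited (adjusted p = 0.0513 and 0.0795). The departure from an exact inversion was lost without replicate 2 (adjusted p = 0.0583). The rhythm was not called under DRF without replicate 2 (0.114) or under NRF without replicate 4 (0.126). It was the steadiest of the 10 genes, with a median coefficient of variation within groups of 6.37%.

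Haao, the dioxygenase that makes the precursor of quinolinate, did not pass any rhythm test. Its group means lay between 196 and 256 scaled counts under DRF and between 176 and 217 under NRF. Only at ZT16 were the DRF livers (258, 243, 265 and 256) all above the NRF livers (170.2, 210.3, 204 and 214). That difference of 0.36 ± 0.17 (log2, SE) did not pass (adjusted p = 0.151). Aligned to the fed phase, the difference at 16 h passed (256 ± 9.02 against 176 ± 51.7 scaled counts, adjusted p = 0.0129), while the test over all aligned times did not (adjusted p = 0.0657).

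Afmid, the formamidase that releases kynurenine, and Qprt, which converts quinolinate to nicotinic acid mononucleotide, were the least even genes. The median coefficient of variation within groups was 37.9% for Afmid and 38.7% for Qprt, against a median of 8.96% over the 6695 genes with a mean of at least 10. At DRF ZT12 the livers read 28.6, 54.0, 57.8 and 25.1 scaled counts of Qprt, and over all livers it ran from 9.55 to 62.1. None of the 7 tests over times passed for Qprt, and the SE of its difference at a single time was 0.46 (log2). The cause of the spread in Qprt was not tested.

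For Afmid (ENSMUSG00000017718, chr11:117825924-117839908, plus strand), 44.2% of the exon bases are shared on the same strand with Gm20708. In 11 libraries Gm20708 was between 1.21 and 4.09 scaled counts, and Afmid there had a median of 99.4 (62.1 to 136). In the other 45 libraries Gm20708 was between 158 and 362, and Afmid had a median of 46.6 (29.5 to 62.9). High Afmid values therefore came with low values of the overlapping gene. The rhythm of Afmid differed between regimens (adjusted p = 0.0245), and this adjusted p was 2.39e-04 without the 11 libraries. It was 0.252 without replicate 1, 0.145 without replicate 3 and 0.0740 without replicate 4. At ZT4 the DRF livers read 122, 45.1, 47.6 and 57.0, the first of them 1 of the 11, and the NRF livers read 33.9, 42.4, 33.2 and 29.5. All DRF livers were above all NRF livers at that time, yet the difference over all libraries did not pass (0.83 ± 0.34 on the log2 scale, adjusted p = 0.0827). Without the 11 libraries the differences at ZT4 and ZT8 passed (0.51 and 0.66 on the log2 scale, adjusted p = 6.45e-03 and 2.24e-03), as did the tests over all times of day and over all times from the start of the fed phase (adjusted p = 4.73e-04 and 0.0156). The rhythm under DRF, the departure from an exact inversion and the daily mean did not pass without them (adjusted p = 0.149, 0.140 and 0.0962). These libraries were picked after the data were seen, by a gene that shares exons with Afmid, and held its higher values. Leaving them out narrows the spread of Afmid by selection, so the results without them are no support for a difference.

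**Figure D4:**
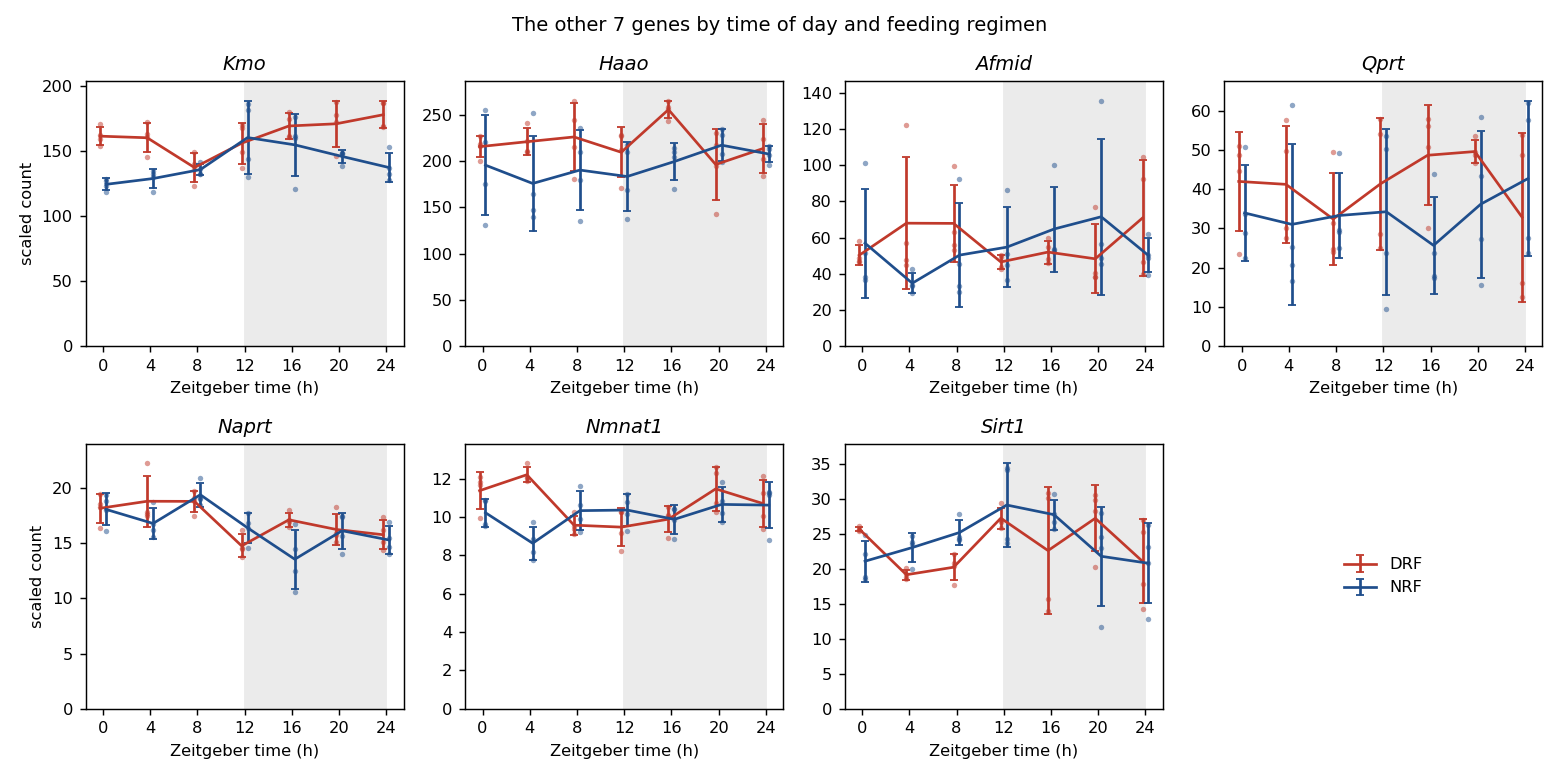
Scaled counts of the other 7 genes against zeitgeber time (h), drawn as for Nampt (points are livers, lines are means, bars are SD, grey is the dark phase). Kmo under DRF lies above NRF at ZT0, ZT4 and ZT24; Afmid and Qprt show the widest spread between livers of a group.

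Among the genes of NAD use, Nnmt, which methylates nicotinamide, kept its peak in the dark phase in both regimens. At ZT20 the DRF livers read 206, 244, 276 and 183 scaled counts and the NRF livers 214, 244, 292 and 196. The regimens overlapped there, and the difference was -0.06 ± 0.23 (log2, SE). At ZT4 the DRF livers read 130, 137, 147 and 169 and the NRF livers 74.5, 83.0, 53.7 and 45.0. These groups did not overlap, and DRF was 2.28-fold higher in the ratio of means (1.21 ± 0.23 on the log2 scale, adjusted p = 1.10e-04). At ZT0 the groups did not overlap either, and the difference did not pass (0.61 ± 0.23, adjusted p = 0.0691).

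Nnmt (ENSMUSG00000032271, chr9:48591877-48605153, minus strand) peaked at ZT19.4 ± 0.63 h under DRF and ZT17.98 ± 0.44 h under NRF, 1.38 ± 0.77 h apart (SE). The amplitude was 63.4 ± 11.6 scaled counts under DRF and 94.5 ± 12.3 under NRF. Its lowest group mean was 96.1 ± 13.7 (SD, n = 4) at ZT12 under DRF and 64.0 ± 17.7 at ZT4 under NRF. The rhythm differed between regimens (adjusted p = 4.69e-03), a call lost without replicate 4 (adjusted p = 0.280). The departure from an exact inversion had the smallest p of the 10 genes (adjusted p = 7.72e-11). Aligned to the fed phase, Nnmt was 1.83 ± 0.23 higher under DRF at 16 h and 1.21 ± 0.23 lower at 8 h (log2, SE; adjusted p = 4.12e-07 and 5.58e-04).

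Sirt1, a deacetylase that consumes NAD, passed no test of a difference between regimens with the main settings. The test over all times from the start of the fed phase (adjusted p = 0.0900) passed in 2 of 13 alternatives. The departure from an exact inversion (adjusted p = 0.0721) passed in 3 of 13. The group means of Sirt1 lay between 19.2 and 29.2 scaled counts. The rhythm under NRF passed (4.02 ± 1.06 scaled counts, peak at ZT12.4 ± 1.14 h, adjusted p = 0.0281), a call lost without replicate 3 (0.135), without replicate 4 (0.208) and without the ZT0 or the ZT24 libraries, and that under DRF did not (3.07 ± 1.42, adjusted p = 0.324). The difference in rhythm did not pass (adjusted p = 0.143). At DRF ZT16 the livers read 30.9, 13.96, 15.7 and 30.2, a wider range than that of the group means. The groups did not overlap at ZT0 and ZT8, but no single time passed, so the missing overlap is a description only. The largest difference was -0.37 ± 0.21 at ZT16 (log2, SE, adjusted p = 0.2504).

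**Figure D5:**
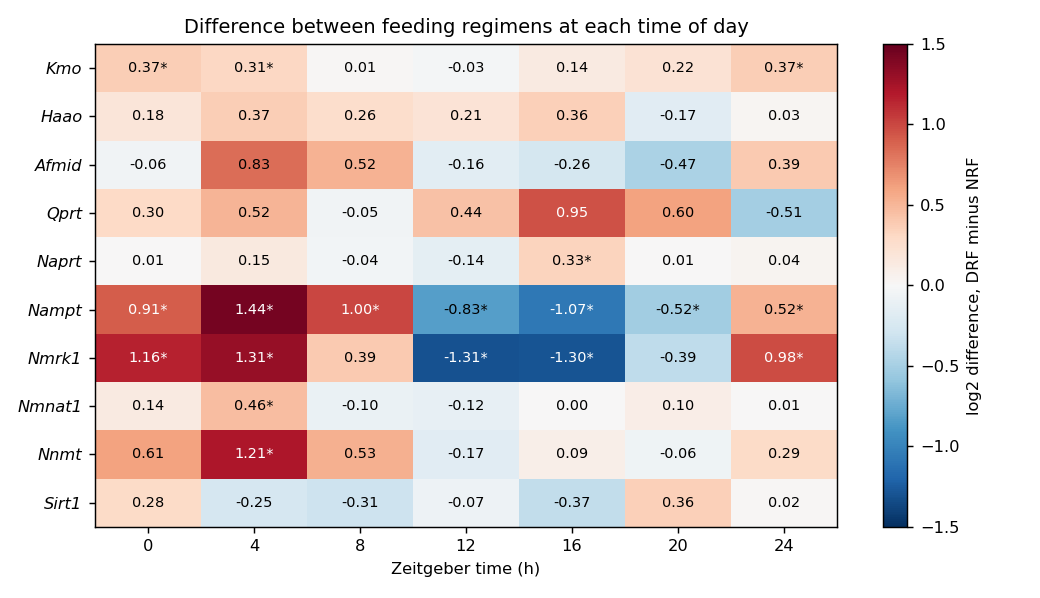
Log2 difference between regimens (DRF minus NRF, limma on log2(scaled count + 1)) for each gene and zeitgeber time (h); stars mark adjusted p under 0.05 over all genes. Nampt differs at all 7 times and Nmrk1 at 5, both with a change of sign; Qprt, Haao, Afmid and Sirt1 have no starred time with all libraries included.

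At single times of day, the genes that differed between regimens numbered 3 of 10 for ZT0 (16% of all genes), 5 for ZT4 (20.4%), 1 for ZT8 (13%), 2 for ZT12 (15.2%), 3 for ZT16 (15.2%), 1 for ZT20 (13.7%) and 3 for ZT24 (14.1%). ZT4, when DRF mice had been in the fed phase for 4 h, was the time with the most genes. There Nampt, Nmrk1, Nmnat1, Kmo and Nnmt were all higher under DRF, while 2743 of all 25415 genes were called higher. With the length correction the call of Kmo at ZT4 was lost (adjusted p = 0.0550), and the calls over all genes went from 5172 to 6868. Over the 7 times together, 6 of 10 genes differed (Nampt, Nmrk1, Nmnat1, Naprt, Kmo and Nnmt), against 42.5% of all genes. The call of Naprt (adjusted p = 0.0359) was lost in 6 of 13 alternatives, which were the values as deposited, median-of-ratios scaling, the length correction and leaving out replicate 1, 2 or 3 (largest adjusted p = 0.252).

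The daily mean differed in 2 of 10 genes, both higher under DRF, against 6.82% of all genes in either direction and 4.12% higher under DRF. Kmo was 0.17 ± 0.04 higher and Nnmt 0.32 ± 0.10 higher (log2, SE; adjusted p = 6.76e-04 and 0.0331). The call of Nnmt was lost with the length correction, without the ZT0 libraries and without replicate 1 or 3. In bulk liver, more cells of a type and more RNA per cell cannot be told apart. All 4 erythroid markers were also higher under DRF in the daily mean, with a median summed level of 1056 (527 to 1960) against 705 (439 to 1294) under NRF, and their part in these means was not tested. The summed Kupffer cell markers had medians of 643 and 648, and none of the 5 passed.

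A longer list of 31 genes of NAD metabolism gave the surroundings of these 10. Of the 31, 29 were in the table and 25 had a mean of at least 1 scaled count. The rhythm passed in 20 of 29 under DRF (34.9% of all genes) and in 22 under NRF (43.6%), and it differed between regimens in 18 (38.8%). The daily mean differed in 10 (6.82% of all genes), with 7 of them higher and 3 lower under DRF. The departure from an exact inversion passed in 16 (34.2%). All genes include many of low level, and whether the list stands apart from genes of like level was not tested.

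On the tryptophan side, Tdo2, which opens the kynurenine pathway in liver, was highest at ZT16 in both regimens, with 1400 ± 199 scaled counts under DRF and 868 ± 123 under NRF (SD, n = 4). Its daily mean was 0.37 ± 0.06 higher under DRF (log2, SE, adjusted p = 4.41e-05). Kynu, the kynureninase, was highest under DRF at ZT16 (202 ± 16.4) and under NRF at ZT24 (187 ± 12.4). Acmsd, which diverts the pathway away from NAD, was highest at ZT20 and lowest at ZT12 in both. It ran from 49.6 ± 10.5 to 113 ± 37.0 under DRF and from 26.9 ± 3.94 to 158 ± 41.0 under NRF. Aadat, a kynurenine aminotransferase, was 0.31 ± 0.04 higher in the daily mean under DRF (adjusted p = 1.96e-08).

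On the nucleotide side, Pnp, the purine nucleoside phosphorylase, had the smallest p of the rhythm difference in the list (adjusted p = 2.83e-19). Its highest group means were 195 ± 12.3 for DRF at ZT16 and 182 ± 15.8 for NRF at ZT24, and its lowest were 88.9 ± 5.92 for DRF at ZT0 and 75.0 ± 11.6 for NRF at ZT12. Nt5e, the ectonucleotidase, had its lows at the same times, 40.8 ± 4.30 for DRF and 33.3 ± 6.21 for NRF. Nadsyn1, the NAD synthetase, was highest at ZT0 under DRF (17.97 ± 0.57) and at ZT8 under NRF (18.03 ± 1.003; adjusted p of the rhythm difference 1.39e-14).

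Sirt3, the mitochondrial sirtuin, differed in rhythm between regimens. Its highest group means were 39.0 ± 0.89 for DRF at ZT24 and 37.2 ± 2.97 for NRF at ZT12, with an adjusted p of 2.63e-14 for the rhythm difference. The aldehyde oxidases Aox1 and Aox3, which oxidise methylnicotinamide, also differed in rhythm (adjusted p = 1.52e-09 and 1.49e-08). Aox3 reached 765 ± 115 scaled counts at ZT8 under NRF, while its highest group mean under DRF was 440 ± 74.5, at ZT12. Its daily mean was 0.43 ± 0.06 lower under DRF (adjusted p = 1.34e-06).

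ZT0 and ZT24 are the same hour of the day, and 0 of 10 genes differed between them in either regimen by limma, against 3.06% of all genes under DRF and 7.81% under NRF. The change from ZT0 to ZT24 differed between regimens in 0.00393% of all genes and in none of the 10. At an unadjusted p under 0.05 there was 1 gene under DRF (Naprt) and there were 2 under NRF (Nampt and Naprt). Nampt read 23.2 ± 2.78 at ZT0 and 27.3 ± 1.40 at ZT24 under NRF (SD, n = 4).

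The genes whose 14 group means were most like those of a member were sought among 8913 genes with a mean of at least 5 scaled counts. For Nampt they were Pdxk, Maco1 and Coq10b, with Pearson correlations of 0.98, 0.96 and 0.94. Pdxk is the kinase that activates vitamin B6. For Nmrk1 they were Smarca2, Sema4g and Wee1 (0.96, 0.95 and 0.95). For Nnmt they were Cyp3a13, Oxsr1 and Sfxn1 (0.94, 0.93 and 0.91), and for Kmo they were Selenop, Slco1a4 and Tmem123 (0.95, 0.94 and 0.93). Naprt was closest to Tmem205, Gm9754 and Ddx54 (0.95, 0.93 and 0.93). The best correlations of the other 5 genes were lower, 0.91 for Haao with Slc25a48, 0.88 for Nmnat1 with Gjb2, 0.87 for Qprt with Ivd, 0.86 for Afmid with Fam47e and 0.81 for Sirt1 with Traf6. These correlations describe groups that share libraries and depth.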

How the data were processed

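RNA from 56 mouse livers was sequenced by the authors from strand-specific libraries after ribosomal RNA depletion, per the labels, whose molecule field says polyA RNA. Per the labels' processing notes, CASAVA 1.8 and featureCounts 1.5.0-p3 were used with the builds mm10 and GRCm38.p6. Neither the aligner nor whether counting used strand is given in the sources used here. The authors deposited gene and transcript values named TPM, which sum to between 995320 and 997990 per library but are not linear in counts, so their unit is treated as a score that the authors rescaled. Multiplied by exon length, a deposited value equalled a·ln(1 + f·k), where k is a whole count. In genes left out of the fit, 96.6% to 99.0% of values lay within 0.05 of a whole count, where 10% would by chance. The scaled count is f·k. Its 1 unit stood for 304 to 723 recovered counts, which summed to between 325 and 732 M (mega) per library, above the depth the study states, so no count model was used. All 10 genes gave whole counts in 100% of the libraries judged (34 for Kmo, 35 for Nnmt and 56 for the rest), Haao within a wider tolerance of 0.2. At that tolerance 40% of values would be whole by chance. For Haao and Nmrk1 the length was searched so that counts came out whole, so their wholeness is no check. Of 25415 genes none was left out.

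The tests were limma 3.58.1 (R 4.3.3) with a variance trend, on log2(scaled count + 1), over the 56 libraries: a 24-h cosine per regimen, and 14 group means. MetaCycle, used in the study, was not used here. Scripts were tested on simulated data. Samples of the same replicate number are different animals, and their deviations from group means did not correlate (mean r 0.0011 over 364 pairs). Peaks and amplitudes are least squares values with delta-method SE (Python 3.11.15, numpy 2.4.6). The named genes are the 10 members, the 8 genes of the NAD list with the smallest p of the rhythm difference, Tdo2, Kynu, Acmsd and Nadsyn1, and the 3 genes most like each member. The members, lists and rules were chosen with earlier results of these data known. Alternatives were a pseudocount of 0.1, the values as deposited, median-of-ratios scaling, a length correction, a filter at a mean of 1, no variance trend, leaving out replicates or end times, a replicate block, each regimen alone and an exact Kendall rank test. Between 51.3% and 55.7% of transcript values lay within 2% of a fitted curve, so transcript values were not reported. The circRNA table was not used here, since it gives no host gene. Columns without a sample numbered 0.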

Additional observations from a re-analysis of the deposited data

Results flagged for a closer look

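The rhythm of 6 genes differed between feeding regimens by the limma test of the difference itself, with adjusted p = 1.06e-19 for Nampt, 4.39e-21 for Nmrk1, 1.98e-03 for Kmo, 4.69e-03 for Nnmt, 0.0245 for Afmid and 0.0290 for Nmnat1. The fitted peaks of Nampt and Nmrk1 lay 10.7 ± 0.42 h and 11.9 ± 0.46 h apart (SE). The differences between their fitted amplitudes were -9.38 ± 1.96 and -5.62 ± 1.999 scaled counts (DRF minus NRF), a description that was not tested. For Nmrk1 the limma test of a departure from an exact inversion did not pass (adjusted p = 0.0746). The peaks of Nnmt lay 1.38 ± 0.77 h apart, which is less than 2 SE and less than the 4-h sampling step.

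In 10 of 140 groups of 4 livers, 1 liver lay far from the other 3 by Dixon's test, which chance gives in about 1 of 20 groups. In Afmid this was the liver at 122 (DRF ZT4), 76.8 (DRF ZT20), 99.9 (NRF ZT16) and 136 (NRF ZT20), and all 4 belong to the 11 libraries in which the overlapping Gm20708 was at most 4.09. High livers were also found for Nmrk1 at DRF ZT20 (32.2, the others at most 24.05), Naprt at DRF ZT4 (22.2, at most 17.8) and Sirt1 at NRF ZT8 (27.9, at most 24.6). Low livers were found for Nampt (25.2, the others at least 27.9) and Nmnat1 (8.81, at least 11.2) at NRF ZT24 and for Kmo at NRF ZT20 (138, at least 147).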

How the results depend on the processing

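The calls of Nampt and Nmrk1 for a rhythm in each regimen and for its difference between regimens were kept in every alternative run. No directional call of the 10 genes changed sign. The number of genes with a rhythm difference was 6, between 2 and 6 when 1 replicate was left out, and 2 without replicate 4, when Kmo, Nnmt, Afmid and Nmnat1 were lost. The number departing from an exact inversion was 4, and 7 on the values as deposited, where Naprt was lost and Nmnat1, Nmrk1, Haao and Sirt1 were gained. The number with a different daily mean was 2; it was 1 with the length correction, 1 without ZT0 libraries and between 1 and 2 with 1 replicate left out, Nnmt being lost each time. For ZT24 against ZT0 it was 0, and 6 on the values as deposited. The cause of these changes was not tested. Of single-gene calls and values, 1006 were the same, 44 were lost and 43 were gained.

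Replicate numbers do not pair animals here, and with a replicate block the numbers of genes called were 5 and 6 for the rhythm under DRF and NRF, 6 for its difference, 4 for the departure, 3 for the mean, 7 at any time of day and 6 aligned to the fed phase, Haao being the gene gained. Leaving out the 11 libraries with low Gm20708 was chosen after seeing the data and was made for Afmid, where it took the rhythm under NRF past the threshold (adjusted p = 2.41e-04 against 0.0501), as well as the tests at ZT4 and ZT8, at any time of day and at any time from the start of the fed phase. The rhythm of Afmid under NRF also passed in 6 other alternatives. Over all genes, the count for ZT24 against ZT0 under NRF was 1986, with a range from 90 without the 11 libraries, and 160 without replicate 2, to 6994 with the length correction. Under DRF it was 778, with a range from 119 without replicate 3 to 1868 on the values as deposited. The length correction also took the count at any time from the start of the fed phase from 10353 to 15740 and that at 8 h from 2946 to 8143. Counts of the daily mean went from 1734 to 756 without replicate 1. At 12 h from the start of the fed phase the count went from 1190 to 318 without replicate 2 and to 2428 without ZT24 libraries. The number of livers per group, 4, limits the precision. What the recovered counts stand for was not settled, since their sums lie above the depth that the study states.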

Other observations

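Differences between livers of the same group also followed other genes. Over the 56 livers, deviations of Nnmt from its group means correlated with those of Slc25a15 (Pearson 0.85), Asl (0.83), Sult1d1 (0.81), Gldc (0.80) and Aass (0.79), among genes with a mean of at least 5 scaled counts. Slc25a15 and Asl act in the urea cycle, and Gldc and Aass in the breakdown of glycine and lysine. For Kmo the closest were Plscr2 and Sar1b (0.82 and 0.81), and for Naprt they were Pih1d1 and Acads (0.83 and 0.82). The highest such correlation was 0.58 for Afmid, 0.59 for Nmrk1, 0.62 for Qprt, 0.64 for Sirt1 and Nampt, 0.67 for Haao and 0.69 for Nmnat1. These are descriptions over livers that share library preparation and depth, and the genes were chosen after their values were seen.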
